A study of Mus musculus with 6 samples.

Results

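Translation initiation factors (eIF proteins) and the kinases that inhibit eIF2 were examined in whole spleen of Balb/c mice with and without exposure to perfluorooctane sulfonate (PFOS), a persistent fluorinated surfactant. The members were all genes whose symbol starts with Eif and to which the platform annotation assigns a probe set under that symbol alone, leaving out the Y-linked Eif2s3y. There were 46 such genes of 18193 on the array, with 131 probe sets. Of these, 45 genes and 111 probe sets had a mean over the 6 arrays at or above a log2 value of 5.62, the 40th percentile of the array, and were tested. Eif4a3, a helicase of the exon junction complex, was the gene left out, with 5.56 in control and 5.46 in PFOS on its probe set. The lists used here also held Eif1, Eif2s1, Eif3g, Eif3j1, Eif3j2, Eif4g1 and Eif4ebp3, which had no probe set under their symbol alone and were not analysed here.

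All mice were 6 to 8 weeks old, with no genetic change named in the labels. The control group was 3 spleen samples from untreated mice, and the PFOS group was 3 from mice given 10 mg per kg body weight per day by stomach tube for 3 weeks. Total RNA was hybridized to 1 Affymetrix Mouse430_2 array per sample, and the deposited log2 values came from RMA. By their labels the arrays are biological replicates, but whether a sample was 1 mouse or a pool, and whether the controls received a vehicle, is not stated. P-values measure only the spread between these arrays, which may be technical.

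Over the 13101 genes tested, correlations ran from 0.9985 to 0.9991 between arrays of the same group and from 0.969 to 0.970 between arrays of different groups. All 6 mice were labelled female, which the arrays go against: the X-inactivation transcript Xist stayed between 5.62 and 5.86 on its brightest probe set, while the Y-linked Eif2s3y read 9.62 to 9.91 on all 6 arrays. In a list of spleen identity markers of lymphoid, myeloid and stromal cells, 7 of 8 tested genes were called higher in PFOS and 0 lower. The list shares Cd79a, Cd3e and Spic with the lists of single cell types used below. Limma called 66.6% of all genes at an adjusted p under 0.05, so a call by itself was the common outcome. The mean of 24 probe sets for spikes added before labelling was 6.65 ± 0.01 in control (SD, n = 3). In PFOS it was 6.11 ± 0.02, so that PFOS minus control came to -0.53 (exact two-sided permutation p = 0.1, the smallest that 3 arrays against 3 allow). Scaling the arrays on these spikes moved the median change of all genes by 0.53 on the log2 scale. Directions below are therefore those of the deposited values, where the median change of all genes was 0.05. Any fall smaller than 0.53 turns into a rise with that scaling, and the text gives the scaled value for the main genes only.

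Initiation of translation begins when eIF2, carrying GTP and the initiator tRNA, joins the small ribosomal subunit together with eIF1, eIF1A, eIF3 and eIF5. The cap-binding complex eIF4F, made of eIF4E, eIF4G and the helicase eIF4A, brings the mRNA. After the start codon is found, eIF2 leaves with GDP and is recharged by the exchange factor eIF2B. Stress kinases phosphorylate the alpha subunit of eIF2 and turn it into an inhibitor of eIF2B, which lowers general translation and favours a few mRNAs such as that of Atf4. In red cell precursors the kinase HRI ties globin synthesis to the supply of haem.

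Initiation factor genes were called about as often as other genes, but more of their calls were falls. Of 45 genes tested, 30 were called, or 66.7%, beside 66.6% of all genes. Of these, 21 were lower in PFOS, or 46.7%, beside 26.0% of all genes, and 9 were higher, or 20.0%, beside 40.6% of all genes. The median change was -0.04 on the log2 scale, beside 0.05 for all genes. The changes were small, with a median size of 0.16 in the factors and 0.16 in all genes, and the range ran from -0.90 (Eif2ak1) to 0.36 (Eif5b). Falls of at least 1.5-fold were called for 2 of 45 members, Eif2ak1 and Eif2ak2, a smaller share than the 5.98% of all genes. No member rose that far, and the share of all genes that did was not counted. Arrays of the groups did not overlap for 34 members, or 75.6%, beside 71.1% of all genes. Relative to the median of all genes, which no scaling by a constant alters, 32 members lay below and 13 above. With scaling on the spikes, 42 members were called higher and 2 lower, and the latter were Eif2ak1 and Eif2ak2. On that scale 92.1% of all genes were called higher and 5.52% lower. Leaving out probe sets that can match several transcripts (suffixes _s_at, _x_at and _a_at) gave 9 higher and 14 lower. That count covers fewer members, since some, among them Eif2ak4, Eif3m and Eif4enif1, had only suffixed probe sets above the filter. The shares of all genes with that setting are not given here.

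**Figure D1:**
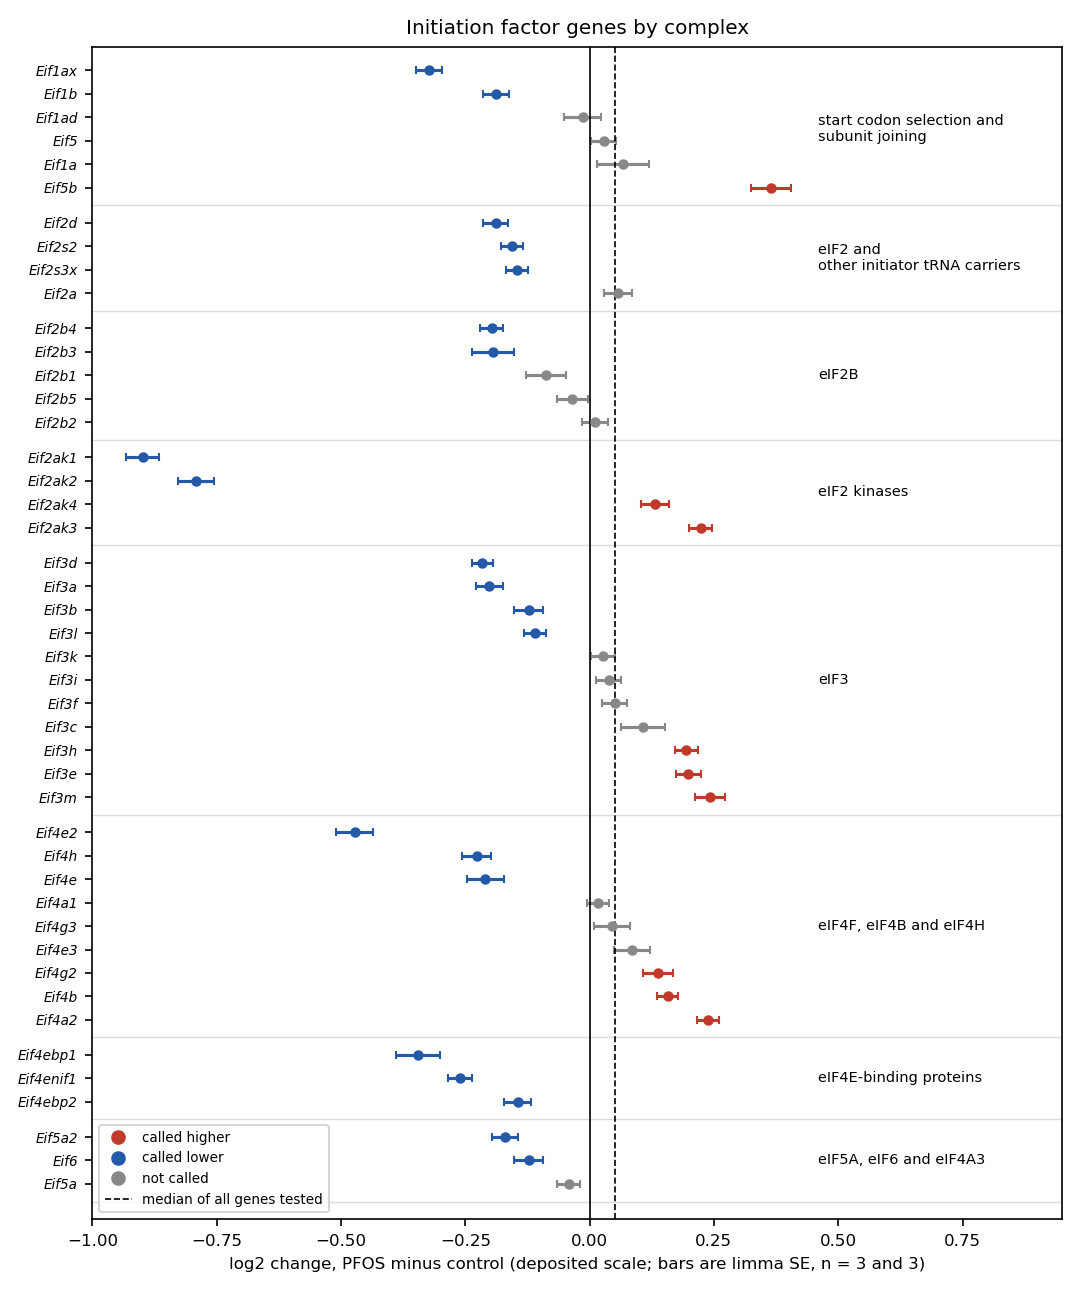
Log2 change (PFOS minus control, deposited scale) of the 45 tested initiation factor genes, grouped by complex; points are limma estimates, bars are SE, 3 arrays per group, and the dashed line is the median of all genes tested (0.05). Eif2ak1 (-0.90) and Eif2ak2 (-0.79) stand apart from the other members, which lie between -0.47 and 0.36, and all points shift right by 0.53 when arrays are scaled on the labelling spikes.

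Of the 4 eIF2 kinases 2 were called lower (50%, beside 26.0% of all genes) and 2 higher (50%, beside 40.6%) on the deposited scale. Each kinase answers a different stress through the same phosphorylation of eIF2. Eif2ak1 encodes HRI, which is held inactive by haem and is abundant in red cell precursors. Its values were 8.69, 8.67 and 8.66 in control and 7.84, 7.75 and 7.74 in PFOS. All PFOS arrays lay well below the lowest control array. The change was -0.90 ± 0.03 (SE), or 1.86-fold lower (limma adjusted p = 4.85e-07), the largest of all members. The other 3 tested probe sets of the gene were also called lower, at -1.07 ± 0.04, -0.49 ± 0.05 and -0.45 ± 0.03. With spikes as the scale Eif2ak1 was still lower, by -0.36 (limma adjusted p = 1.73e-05).

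Eif2ak2 encodes PKR, the kinase that binds double-stranded RNA and is induced by interferon. It read 8.02, 7.95 and 7.91 in control and 7.21, 7.13 and 7.17 in PFOS, with no overlap. The change was -0.79 ± 0.04, or 1.73-fold lower (limma adjusted p = 1.44e-06), and -0.26 with scaling on the spikes. Its other tested probe set went the other way, from 6.13, 6.06 and 6.06 in control to 6.16, 6.26 and 6.22 in PFOS, a rise of 0.13 ± 0.04 (limma adjusted p = 0.014 with each probe set as a row). The fall of Eif2ak2 thus rests on 1 of its 2 tested probe sets, and their mean changed by -0.33 (limma adjusted p = 4.16e-05).

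Eif2ak3 encodes PERK, the kinase of the endoplasmic reticulum that senses unfolded proteins. It read 9.01, 9.03 and 9.04 in control and 9.26, 9.25 and 9.26 in PFOS, and all PFOS arrays were higher. The rise was 0.22 ± 0.02, or 1.17-fold (limma adjusted p = 9.41e-05). Eif2ak4 encodes GCN2, which senses uncharged tRNA when amino acids are short. It read 7.25, 7.24 and 7.19 in control and 7.39, 7.35 and 7.33 in PFOS, a rise of 0.13 ± 0.03 (limma adjusted p = 0.0045). Scaling on ribosomal protein genes ended this call (0.05, limma adjusted p = 0.126). Both genes had 1 tested probe set, and they lay 0.17 (Eif2ak3) and 0.08 (Eif2ak4) above the median change of all genes. Their other probe sets had means under the filter value and were not tested, at -0.08 and 0.19 for Eif2ak3 and 0.49 for Eif2ak4.

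Markers of several cell types differed between the groups beside these kinases. All 12 tested markers of red cell precursors were lower, with a median change of -1.68, and their summed level on the log2 scale ran from 15.53 to 15.55 in control and from 14.30 to 14.31 in PFOS. All 11 tested markers of dividing cells were lower as well (median -1.48, summed level 14.52 to 14.53 in control and 13.04 to 13.05 in PFOS). All 9 tested T cell markers were higher (median 0.62, summed level 12.37 to 12.39 and 12.96 to 12.98), as were 8 of 9 B cell markers (median 0.52, summed level 13.76 to 13.77 and 14.25 to 14.26). All 10 liver markers were lower (median -3.75), with a summed level of 12.54 to 12.55 in control and 8.74 to 8.88 in PFOS. Every marker with a probe set in these 5 lists had a mean over the 6 arrays above the filter value. A marker low in PFOS could pass through its control arrays alone. Whether single liver markers lay under the filter value in PFOS was not examined, so the size of their fall is uncertain. Of 9 neutrophil markers 8 were lower and 1 higher, 7 of 9 red pulp macrophage and 7 of 8 plasma cell markers were higher, 3 of 4 megakaryocyte markers were higher and 1 lower, and all 6 pancreas markers were lower. Their part in the changes of the initiation factors was not tested. In whole spleen, fewer cells of a type and less RNA per cell cannot be told apart.

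**Figure D2:**
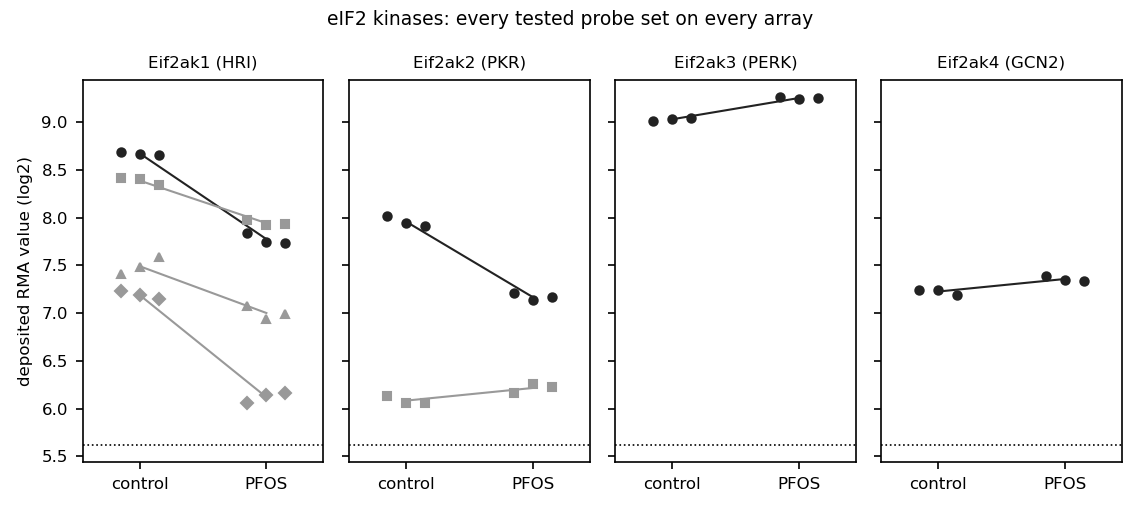
Deposited RMA values (log2) of every tested probe set of the 4 eIF2 kinases on each array, with lines joining group means; black marks the probe set that stands for the gene, grey the others, and the dotted line the filter value of 5.62. All 4 probe sets of Eif2ak1 are lower in PFOS, those of Eif2ak2 part, and Eif2ak3 and Eif2ak4 are slightly higher on the deposited scale.

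The bases before the start sites of the 4 kinases are shown because these genes share a substrate and were called in both directions. The sequences are the 250 bases upstream of the first start listed by RefSeq for GRCm38.p6, written on the strand of the gene (plus for Eif2ak1, Eif2ak3 and Eif2ak4, minus for Eif2ak2). They lie at chr5:143817542-143817791, chr17:78882573-78882822, chr6:70844265-70844514 and chr2:118388367-118388616 in the order printed. Capitals mark matches, on either strand, to the CCAAT box, a common promoter element.
Eif2ak1: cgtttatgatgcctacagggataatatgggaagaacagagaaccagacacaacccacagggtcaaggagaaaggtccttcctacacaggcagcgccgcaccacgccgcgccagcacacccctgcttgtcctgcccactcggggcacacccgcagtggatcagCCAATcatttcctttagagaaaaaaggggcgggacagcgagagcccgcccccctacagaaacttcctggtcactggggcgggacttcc
Eif2ak2: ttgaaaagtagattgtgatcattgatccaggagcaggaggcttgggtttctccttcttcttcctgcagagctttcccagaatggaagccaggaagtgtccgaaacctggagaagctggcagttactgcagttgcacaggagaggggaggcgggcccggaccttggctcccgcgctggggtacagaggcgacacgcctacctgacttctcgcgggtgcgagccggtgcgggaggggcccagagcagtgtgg
Eif2ak3: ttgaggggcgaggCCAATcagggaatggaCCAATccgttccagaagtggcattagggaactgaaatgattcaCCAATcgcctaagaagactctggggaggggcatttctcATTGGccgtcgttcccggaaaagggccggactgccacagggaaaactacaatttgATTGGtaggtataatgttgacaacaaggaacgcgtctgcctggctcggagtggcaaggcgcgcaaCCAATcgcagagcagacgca
Eif2ak4: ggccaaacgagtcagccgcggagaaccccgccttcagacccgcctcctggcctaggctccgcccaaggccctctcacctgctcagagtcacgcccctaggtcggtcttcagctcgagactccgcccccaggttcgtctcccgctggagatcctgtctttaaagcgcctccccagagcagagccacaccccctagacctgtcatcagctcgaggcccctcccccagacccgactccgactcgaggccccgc
Eif2ak3 held 6 matches to CCAAT, a number reached by 0.104% of the promoters of tested genes (11 of 10560), Eif2ak1 held 1, and Eif2ak2 and Eif2ak4 held none. At least 1 match was found in 35.7% of the promoters of tested genes. The window of no kinase held the GATA factor motif (GATA after A or T and before A or G), found in 17.7% of those promoters and in 11.1% of those of the members. A match is a run of letters and not a shown binding site, and its absence concerns this window alone.

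The members had RefSeq promoters in 36 cases, and 5 motifs were searched in them. CCAAT was found in 30.6% of these windows, and with the GATA factor motif it was the pair found in a smaller share than among all 10560 tested genes. The core of the interferon response element occurred in 1 of the 36, that of Eif3a (2.78%, beside 2.63% of tested genes). CACGTG, the E-box that Myc and related factors bind, occurred in 6 of the 36 windows (16.7%, beside 8.26%). Those genes were Eif1b, Eif4h and Eif5a2, which fell, and Eif3f, Eif3k and Eif4a1, which were not called. CCGGAAG, a site type of ETS factors, occurred in 9 (25.0%, beside 12.9%). Of these 9 genes, 6 were called lower, 1 (Eif3m) higher and 2 were not called. The counts are descriptions, since base composition differs between promoters and no test was made.

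Genes of the beta and gamma subunits of eIF2 fell slightly on the deposited scale, and the alpha subunit gene Eif2s1 was not analysed here. Of 4 tested carriers of initiator tRNA, 3 were lower, beside 26.0% of all genes, and 1 was not called, with a median of -0.15. Eif2s2, the beta subunit, read 11.07, 11.07 and 11.05 in control and 10.90, 10.90 and 10.91 in PFOS. The change was -0.16 ± 0.02 (limma adjusted p = 6.04e-04), and all 6 of its tested probe sets were called lower, from -0.13 to -0.40. Eif2s3x, the X-linked gene of the gamma subunit, read 10.57, 10.56 and 10.55 in control and 10.40, 10.42 and 10.42 in PFOS, a change of -0.15 ± 0.02 (limma adjusted p = 7.87e-04). Its call was lost when probe sets with the suffixes _s_at, _x_at and _a_at were left out (-0.03, limma adjusted p = 0.596).

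Eif2d encodes a factor that can deliver tRNA without GTP. Its values were 9.43, 9.40 and 9.39 in control and 9.21, 9.20 and 9.24 in PFOS, a change of -0.19 ± 0.02 (limma adjusted p = 3.69e-04). Here too the probe set left without those suffixes gave no call (0.03, limma adjusted p = 0.465). Eif2a, an alternative carrier of initiator tRNA, was at 0.06 ± 0.03 (limma adjusted p = 0.117). With the labelling spikes as the scale the falls of Eif2s2, Eif2s3x and Eif2d turned into rises of 0.38, 0.39 and 0.35.

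In the exchange factor eIF2B, 2 of 5 subunits were lower (40%, beside 26.0% of all genes) and 3 were not called, with a median of -0.09. The delta subunit gene Eif2b4 read 9.33, 9.36 and 9.36 in control and 9.17, 9.16 and 9.13 in PFOS, a change of -0.20 ± 0.02 (limma adjusted p = 2.13e-04). The gamma subunit gene Eif2b3 read 7.33, 7.48 and 7.46 in control and 7.21, 7.24 and 7.23 in PFOS, a change of -0.19 ± 0.04 (limma adjusted p = 0.0049). Eif2b1, of the alpha subunit, read 8.20, 8.08 and 8.12 in control and 7.98, 8.06 and 8.10 in PFOS. Its arrays overlapped and its change of -0.09 ± 0.04 was not called (limma adjusted p = 0.095), but scaling on ribosomal protein genes called it lower (-0.17, limma adjusted p = 0.0074). Eif2b5 and Eif2b2, of the catalytic epsilon and the beta subunit, were at -0.03 and 0.01 and not called. The difference between subunits was not tested. With scaling on the spikes Eif2b4 and Eif2b3 were both higher, by 0.34.

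Factors that choose the start codon and join the subunits went both ways. Of 6 tested genes in this list 2 were lower (33.3%, beside 26.0% of all genes), 1 was higher (16.7%, beside 40.6%) and 3 were not called. Those 3 were Eif1a, Eif5 and Eif1ad, for the last of which no part in these steps is claimed here. Eif1ad was at -0.01 ± 0.04, and another of its probe sets was lower, at -0.35 ± 0.03. Eif1ax, the X-linked gene of eIF1A, which keeps the scanning ribosome open, read 10.17, 10.12 and 10.13 in control and 9.84, 9.81 and 9.80 in PFOS. The change was -0.32 ± 0.03, or 1.25-fold lower (limma adjusted p = 3.24e-05), and its other tested probe set was lower, at -0.36 ± 0.04. The autosomal copy Eif1a was at 0.07 ± 0.05 and not called, although a second probe set rose by 0.17. Both genes encode nearly the same protein, and signal shared between their probe sets was not tested. Eif1b, a paralogue of eIF1, read 9.91, 9.97 and 9.97 in control and 9.76, 9.76 and 9.76 in PFOS, a change of -0.19 ± 0.03 (limma adjusted p = 5.09e-04). Spike scaling turned Eif1ax to 0.21 and Eif1b to 0.35.

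Eif5b encodes the GTPase that joins the large subunit. It read 8.02, 7.93 and 7.86 in control and 8.30, 8.32 and 8.28 in PFOS, the largest rise of any member, at 0.36 ± 0.04 or 1.29-fold (limma adjusted p = 1.52e-04). Another probe set of Eif5b was lower, at -0.26 ± 0.03 (limma adjusted p = 1.95e-04 with each probe set as a row), and a further one was not called. With the mean over its probe sets the gene was at 0.02 and not called (limma adjusted p = 0.591).

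Eif5 encodes the protein that makes eIF2 hydrolyse its GTP at the start codon, and its probe sets did not move together. The probe set with the highest mean, which stood for the gene, read 11.42, 11.47 and 11.47 in control and 11.50, 11.49 and 11.47 in PFOS. Its change of 0.03 ± 0.03 was not called (limma adjusted p = 0.347). The other 4 tested probe sets of Eif5 were all called lower, at -0.45 ± 0.03, -0.57 ± 0.04, -0.64 ± 0.03 and -0.77 ± 0.16. The probe set at -0.45 read 10.94, 10.91 and 10.93 in control and 10.45, 10.50 and 10.47 in PFOS. The probe set at -0.64 read 10.86, 10.81 and 10.81 in control and 10.21, 10.17 and 10.19 in PFOS, a 1.56-fold fall. In none of these 4 did a PFOS array reach a control array. By the rule of 1 probe set per gene Eif5 thus counted among the genes not called, although 4 of its 5 probe sets fell on the deposited scale.

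**Figure D3:**
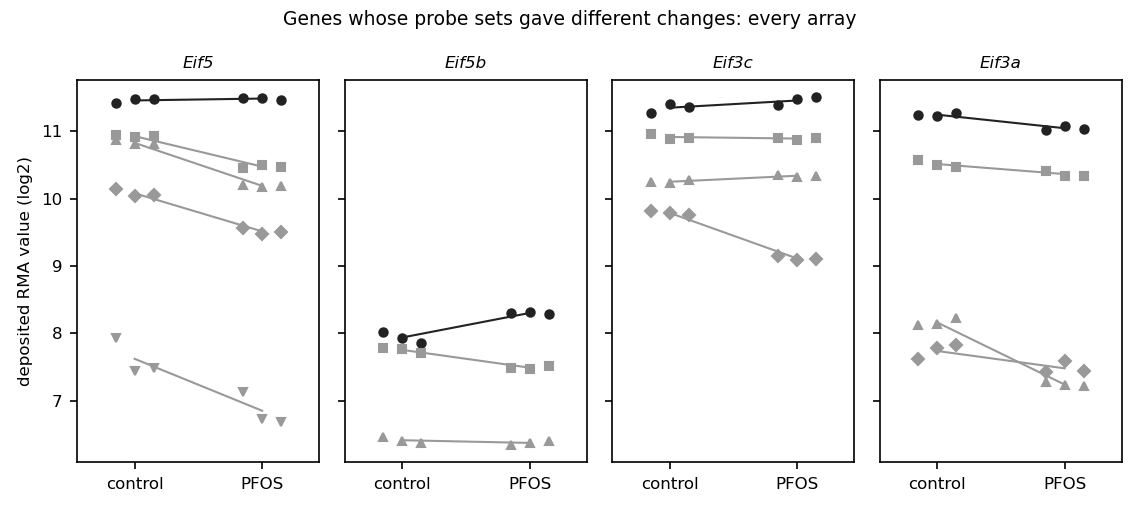
Deposited RMA values (log2) of each tested probe set of Eif5, Eif5b, Eif3c and Eif3a on each array, with lines joining group means; black marks the probe set that stands for the gene and grey the others. In Eif5 the black probe set is level (0.03) and 4 grey ones are lower in PFOS on the deposited scale, by -0.45 to -0.77.

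The scaffold eIF3, which binds the small subunit and recruits the mRNA, was mixed. Of 11 tested subunit genes 3 were higher (27.3%, beside 40.6% of all genes), 4 lower (36.4%, beside 26.0%) and 4 not called, with a median of 0.04. Eif3m read 9.67, 9.62 and 9.68 in control and 9.94, 9.86 and 9.89 in PFOS, a rise of 0.24 ± 0.03 (limma adjusted p = 2.98e-04). Eif3e and Eif3h, which encode further subunits, rose by 0.20 ± 0.02 and 0.19 ± 0.02. All 4 tested probe sets of Eif3e were called higher, from 0.14 to 0.34.

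Eif3d, whose product can itself bind the cap of some mRNAs, read 10.40, 10.40 and 10.40 in control and 10.18, 10.18 and 10.19 in PFOS. The change was -0.22 ± 0.02 (limma adjusted p = 8.90e-05). Another probe set of the gene was higher by 0.34 ± 0.09, from a mean of 5.52 in control to 5.86 in PFOS. Its control mean lay under the filter value of 5.62, so it was tested only through its PFOS arrays. With the mean over both probe sets the gene was at 0.06 and not called (limma adjusted p = 0.312). Eif3a, the largest core subunit, read 11.24, 11.23 and 11.27 in control and 11.02, 11.08 and 11.04 in PFOS, a change of -0.20 ± 0.03 (limma adjusted p = 3.89e-04).

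All 4 tested probe sets of Eif3a were called lower, but by unequal amounts, from -0.15 to -0.92. The largest fall was that of a probe set at 8.12, 8.14 and 8.22 in control and 7.27, 7.23 and 7.21 in PFOS, which is 1.90-fold. Eif3c was not called on the probe set that stood for it (0.11 ± 0.04, limma adjusted p = 0.061). Of its other probe sets, 1 was lower, at -0.68 ± 0.03 (limma adjusted p = 8.90e-07 with each probe set as a row), 1 was higher by 0.09 ± 0.03 and 1 was not called. Eif3b and Eif3l fell by 0.12 and 0.11, while Eif3f, Eif3i and Eif3k, at 0.05, 0.04 and 0.03, were not called. Spike scaling turned Eif3d and Eif3a into rises of 0.32 and 0.33. It adds 0.53 to every change, so the smaller falls of Eif3b and Eif3l turned as well.

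In the cap-binding complex and its helpers 3 of 9 tested genes were higher, 3 lower and 3 not called. Each is 33.3%, beside 40.6% of all genes called higher and 26.0% called lower. Eif4e2 encodes 4EHP, a cap-binding protein that represses translation instead of starting it. It read 8.76, 8.69 and 8.69 in control and 8.31, 8.21 and 8.20 in PFOS, a change of -0.47 ± 0.04 or 1.39-fold lower (limma adjusted p = 2.64e-05). A second probe set was lower, at -0.35 ± 0.03, while 2 others were at 0.09 and 0.03 and not called. Without probe sets of the suffixes _s_at, _x_at and _a_at the direction turned to 0.09 (limma adjusted p = 0.062), and with spike scaling to 0.06 (limma adjusted p = 0.201).

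Eif4e, the cap-binding protein itself, fell by 0.21 (limma adjusted p = 0.0018), and all 3 of its tested probe sets were called lower, from -0.12 to -0.39. These falls are smaller than the 0.53 that spike scaling adds, so they turned on that scale. Eif4h, a cofactor of the helicase, read 11.64, 11.63 and 11.63 in control and 11.46, 11.38 and 11.38 in PFOS, a change of -0.23 ± 0.03 (limma adjusted p = 3.73e-04). It was higher, by 0.09 (limma adjusted p = 0.042), when the suffixed probe sets were left out, and by 0.31 with spike scaling.

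Eif4a2, a helicase subunit, read 12.12, 12.12 and 12.14 in control and 12.36, 12.38 and 12.36 in PFOS, a rise of 0.24 ± 0.02 or 1.18-fold (limma adjusted p = 6.56e-05). Its close paralogue Eif4a1 was at 0.02 ± 0.02 and not called (limma adjusted p = 0.506). Eif4b, another helper of the helicase, rose by 0.16 ± 0.02, and Eif4g2, a relative of eIF4G that does not bind eIF4E, by 0.14 ± 0.03. Another probe set of Eif4g2 was lower, at -0.47 ± 0.03. Eif4g3 and Eif4e3, at 0.04 and 0.09, were not called, although another probe set of Eif4g3 rose by 0.43.

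Proteins that bind eIF4E and hold it away from eIF4G were lower in 3 of 3 tested cases on the deposited scale, with a median of -0.26. Of all genes, 26.0% were called lower. Eif4ebp1 encodes 4E-BP1, which mTOR inactivates by phosphorylation. It read 9.27, 9.15 and 9.23 in control and 8.94, 8.83 and 8.83 in PFOS, a change of -0.35 ± 0.04 or 1.27-fold lower (limma adjusted p = 3.06e-04). A second probe set fell alike (-0.31 ± 0.04), and another was at 0.07 and not called. Eif4enif1, the shuttling protein 4E-T, read 9.61, 9.63 and 9.59 in control and 9.35, 9.37 and 9.33 in PFOS, a change of -0.26 ± 0.02 (limma adjusted p = 5.59e-05).

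Eif4ebp2 encodes the related 4E-BP2. It read 9.67, 9.64 and 9.64 in control and 9.55, 9.49 and 9.48 in PFOS, a change of -0.14 ± 0.03 (limma adjusted p = 0.0025). Of its 5 tested probe sets 2 were lower, 2 higher and 1 not called, and the mean of all 5 gave -0.03 with no call (limma adjusted p = 0.318). Among the higher ones, 1 had a mean of 5.60 in control, under the filter value of 5.62, and 5.72 in PFOS. Spike scaling turned Eif4ebp1, Eif4enif1 and Eif4ebp2 into rises of 0.19, 0.27 and 0.39.

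The remaining factors act outside the scanning steps. Eif5a2, a homologue of the hypusine-carrying protein eIF5A that helps ribosomes through hard peptide bonds, read 6.90, 6.91 and 6.89 in control and 6.69, 6.75 and 6.74 in PFOS. The change was -0.17 ± 0.03 (limma adjusted p = 7.89e-04). Eif5a itself read 12.79, 12.80 and 12.77 in control and 12.73, 12.74 and 12.75 in PFOS, and -0.04 ± 0.02 was not called (limma adjusted p = 0.146). It was called lower after quantile normalization (-0.09, limma adjusted p = 0.016), on ribosomal protein genes (-0.12, limma adjusted p = 0.0033) and with a trended, robust prior (limma adjusted p = 0.016). Eif6, which keeps the large subunit from joining too early, read 9.23, 9.17 and 9.21 in control and 9.09, 9.11 and 9.05 in PFOS, a change of -0.12 ± 0.03 (limma adjusted p = 0.0069). Its other tested probe set was higher by 0.10 ± 0.03, and the mean of both was not called (-0.01, limma adjusted p = 0.693). With spike scaling the 3 genes were higher by 0.36, 0.49 and 0.41.

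Probe sets of the same gene often disagreed in this family. Of 31 members with over 1 tested probe set, 8 had probe sets called in opposite directions, or 25.8%, beside 11.8% of all such genes. The members had a mean of 3.13 tested probe sets and all such genes 2.66, and the difference in share was not tested. The 8 genes were Eif2ak2, Eif3c, Eif3d, Eif4ebp2, Eif4g2, Eif4h, Eif5b and Eif6. The rise in Eif3d, and 1 rise in Eif4ebp2, came from a probe set whose control mean lay under the filter value. Eif5 and Eif1ad were not among the 8 genes, since their brightest probe set was not called and others fell. Counted by probe set, 74 of 111 were called, beside 63.9% of all 22434 probe sets tested. Of these, 51 were lower and 23 higher, or 45.9% and 20.7% of the 111, beside 27.4% and 36.4%.

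**Figure D4:**
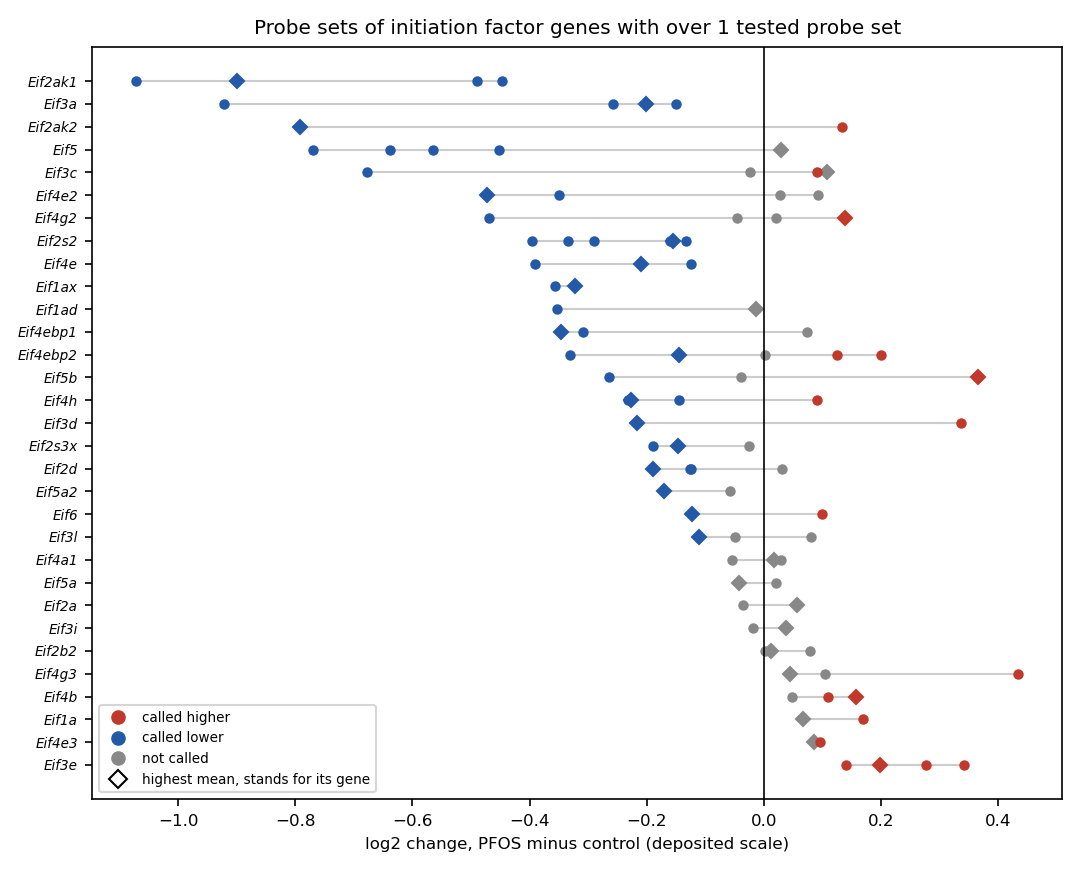
Log2 change (PFOS minus control, deposited scale) of each tested probe set of the 31 members with over 1; diamonds stand for the gene, and blue, red and grey mark called lower, called higher and not called. All tested probe sets of Eif2ak1, Eif3a, Eif2s2, Eif4e and Eif1ax are lower and all of Eif3e higher, while those of 8 genes are called in opposite directions; all points shift right by 0.53 with scaling on the labelling spikes.

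Genes of the same pathway without an Eif symbol moved both ways. Of 53 tested genes in 4 lists 17 were higher, or 32.1% beside 40.6% of all genes, and 20 were lower, or 37.7% beside 26.0%. Their median was -0.03, beside 0.05 for all genes. Quantile normalization gave 21 higher and 18 lower, where 43.9% of all genes were higher and 24.2% lower. Scaling on ribosomal protein genes gave 11 and 28, where the shares of all genes were 26.6% and 37.3%. The list of regulators of the eIF2 kinases and of the phosphatase that reverses them gave 5 higher and 6 lower of 15. These are 33.3% and 40%, beside 40.6% and 26.0% of all genes. The list also held Atf4 and Ddit3, which are neither, and both were among the lower genes. The largest fall was that of Ppp1r15a, or GADD34, the stress-induced subunit that brings the phosphatase to eIF2. It read 10.61, 10.59 and 10.62 in control and 9.43, 9.41 and 9.43 in PFOS, a change of -1.18 ± 0.02 or 2.27-fold lower (limma adjusted p = 2.33e-08). Its constitutive relative Ppp1r15b changed by -0.42 ± 0.02, and Atf4, the transcription factor translated when eIF2 is phosphorylated, by -0.52 ± 0.03. With spike scaling Ppp1r15a remained lower (-0.65), while Ppp1r15b turned to 0.12 and Atf4 to 0.02, the latter not called.

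Among regulators of eIF4F and poly(A)-binding proteins 4 of 13 were higher and 4 lower, each 30.8%, beside 40.6% and 26.0% of all genes. Pabpc4, an inducible poly(A)-binding protein, read 11.14, 11.16 and 11.16 in control and 9.99, 10.03 and 10.01 in PFOS, a change of -1.14 ± 0.02 or 2.21-fold lower (limma adjusted p = 2.51e-08) and -0.61 with spike scaling. The main form Pabpc1 changed by -0.29 ± 0.02, and by -0.58 without suffixed probe sets, and Pdcd4, an inhibitor of eIF4A, rose by 0.25 ± 0.02. Of 14 other initiation and recycling proteins 5 were higher (35.7%, beside 40.6% of all genes) and 4 lower (28.6%, beside 26.0%). Mcts1, which acts in reinitiation, was at 0.24 ± 0.02 and the RNA helicase Ddx3x at 0.23 ± 0.02. Eftud2, a GTPase of the spliceosome that stood in this list, changed by -0.29 ± 0.04, but was higher by 0.21 without suffixed probe sets.

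In the list of elongation and termination factors 3 of 11 tested genes were higher (27.3%, beside 40.6% of all genes) and 6 lower (54.5%, beside 26.0%). The list also held Eef2k, Pelo, Eef1e1 and Hbs1l, which are neither. Of these, Eef2k, Pelo and Eef1e1 were among the lower genes, and Hbs1l was not called. Eef2k, the kinase that slows elongation, read 9.17, 9.12 and 9.12 in control and 8.43, 8.38 and 8.40 in PFOS, a change of -0.74 ± 0.03 or 1.67-fold lower (limma adjusted p = 4.07e-07) and -0.20 with spike scaling. Its mean over probe sets was -0.47, and without suffixed probe sets it was -0.19 (limma adjusted p = 0.0018). The elongation factor Eef1d changed by -0.38 ± 0.03 and the ribosome rescue factor Pelo by -0.35 ± 0.04. Spike scaling turned Pabpc1, Eftud2, Eef1d and Pelo into rises of 0.25, 0.25, 0.15 and 0.19. Of the 53 pathway genes, 49 were called higher and 3 lower on that scale, and the 3 were Ppp1r15a, Pabpc4 and Eef2k. Of all genes, 92.1% were called higher and 5.52% lower with spike scaling.

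The split of calls among the initiation factors followed the scaling of the arrays. It was 9 higher and 21 lower in the deposited values and after centring each array on its median. Quantile normalization gave 12 and 22, and scaling on ribosomal protein genes gave 7 and 25. Of all called genes, 61.0% were called higher in the deposited values, 59.0% after median centring, 64.5% after quantile normalization, 41.6% on ribosomal protein genes and 94.3% on the spikes. The distance of the members' median from that of all genes was -0.09 in the deposited values and with each scaling by a constant, and -0.12 after quantile normalization.

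**Figure D5:**
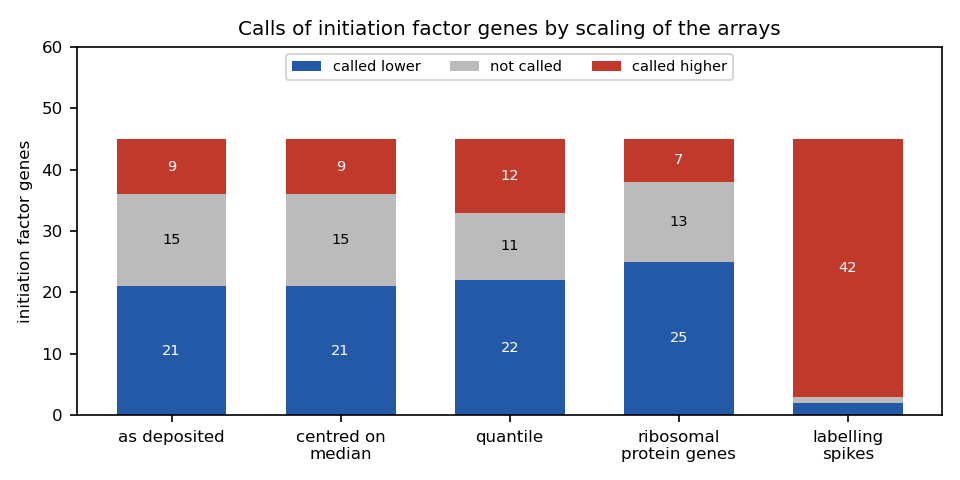
Number of the 45 tested initiation factor genes called lower, not called and called higher (limma, adjusted p under 0.05) under 5 scalings of the arrays. The first 4 scalings give 21 to 25 lower and 7 to 12 higher, and scaling on the labelling spikes gives 2 lower and 42 higher. With the spikes as the scale 5.52% of all genes are called lower and 92.1% higher.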

How the data were processed

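Gene expression was measured in 3 control and 3 PFOS spleens on Affymetrix Mouse430_2 arrays. Per the submitters' processing notes the deposited log2 values came from RMA, which corrects background, equalizes the arrays and summarizes each probe set; the sources used here do not give its version or any filter, and no scanner files or detection calls were used here. Every change is therefore relative to the array and not an amount per cell, and the number of arrays limits the precision.

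Of 45101 probe sets, 64 were controls, 34945 had 1 gene symbol in the platform annotation, 932 several and 9160 none. All 46 members matched GRCm38.p6 RefSeq by gene identifier. Probe sets under the 40th percentile of non-control means (5.62) were left out, and the probe set with the highest mean stood for its gene. Groups were compared with limma 3.58.1 (lmFit, eBayes; R 4.3.3) by two-sided tests, and p-values of the 13101 genes were adjusted by the Benjamini-Hochberg method. A second fit used each of 22434 probe sets as a row and gave the values of further probe sets. The procedure was tested on simulated data.

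Members and lists were chosen with earlier results of these data known. Named with all arrays were the 4 kinases and up to 3 members with the largest change in each group; in each pathway list up to 3 called genes were named. Eif1ad and members whose probe sets disagree were singled out after their values were seen. Alternatives covered the replicate block, filter, scaling, probe sets, variance prior, threshold and leaving out each array.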

Additional observations from a re-analysis of the deposited data

How the results depend on the processing

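Of 37 named genes, none lost or gained a call or changed direction when any single array was left out. Those fits gave 9 to 10 initiation factor genes higher and 21 lower in every such fit, pathway genes 13 to 17 higher and 18 to 21 lower, and medians of the factors from -0.0509 to -0.0343. Over all alternatives and named genes, 618 values kept direction and call, 30 turned, 5 lost a call and 4 gained one. The total includes settings that leave the change of a named gene as it is and so cannot turn it. These are the replicate block, the filters, the variance prior, the threshold and each probe set as a row. Of the turns, 24 came with spike scaling, 5 without suffixed probe sets and 1 with the mean over probe sets.

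Scaling on the labelling spikes gave 42 factors higher and 2 lower, 49 pathway genes higher and 3 lower, and a median of 0.49. It called 92.1% of all genes higher and 5.52% lower. It turned Eif1ax (0.21), Eif1b (0.35), Eif2d (0.35), Eif2s2 (0.38), Eif2s3x (0.39), Eif2b4 (0.34), Eif2b3 (0.34), Eif2b1 (0.45), Eif3d (0.32), Eif3a (0.33), Eif4e2 (0.062), Eif4h (0.31), Eif4ebp1 (0.19), Eif4enif1 (0.27), Eif4ebp2 (0.39), Eif5a2 (0.36), Eif6 (0.41), Eif5a (0.49), Atf4 (0.016), Ppp1r15b (0.12), Pabpc1 (0.25), Eftud2 (0.25), Eef1d (0.15) and Pelo (0.19); by construction it adds 0.53 to every change. Scaling on 42 ribosomal protein genes gave a median of -0.12 and 11 pathway genes higher. Without suffixed probe sets 9 factors were higher and 14 lower, and the median was -0.016. With that setting Eif2d (0.031), Eif4e2 (0.092), Eif4h (0.090), Eif6 (0.10) and Eftud2 (0.21) turned, the cause of which was not tested. It left no value for Eif2ak4, Eif2b4, Eif3m, Eif4enif1, Eif5a, Ppp1r15b, Pabpc4, Eef1d and Pelo, so these were not checked by it. The mean over probe sets turned Eif3d (0.061) and moved Eif3a to -0.38, Eif2s2 to -0.25, Eif2d to -0.10, Eif4e2 to -0.18, Eif4h to -0.13 and Eif4ebp1 to -0.19. With each probe set as a row, more features were counted: 23 factor probe sets were higher and 51 lower, and 32 pathway probe sets were higher and 37 lower.

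With the replicate block the factors were 11 higher and 21 lower and the pathway genes 17 and 22. Deviations of same-numbered arrays correlated at 0.32, 0.14 and 0.097, all positive, and 4 of 6 arrays correlated best with their own number. Whether arrays of 1 number shared a step was not tested. The main comparison did not take the numbers as pairs, and the replicate block did. Other background corrections and a slide block were not run, since they need scanner files, which were not used here.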
